A study of Rattus norvegicus with 5 samples.

Results

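Axon guidance genes encode the cues that steer growing nerve fibres and the receptors that read them, and 69 of the 20339 genes in a table of rat corneal transcripts belong to these families. The members were taken by gene symbol: semaphorins (20 genes), plexins (9), neuropilins (2), netrins and netrin-G (6), netrin receptors of the Unc5 family with Dcc (5), Slits (3), Robos (4), ephrins (7), EphA receptors (8) and EphB receptors (5). These families were chosen with earlier results of these data known. The 5 RNA libraries came from whole corneas of male Sprague-Dawley rats aged 6 months. The genotype was wild-type for 3 of them and transgenic P1 hMR for 2, with excess mineralocorticoid receptor from a human NR3C2 transgene. No drug or other treatment is named for either group. Which promoter drives the transgene, whether the transgenic rats come from 1 line, and whether each library is 1 rat are not given in the sources used here. The p-values therefore measure the spread between these libraries. The question the comparison addresses is how excess mineralocorticoid receptor alters corneal transcripts, here those of the guidance families.

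The cornea is densely supplied with sensory axons that enter through the stroma, and it normally holds no blood vessels. Guidance cues work in ligand and receptor pairs. Secreted class 3 semaphorins bind neuropilins, which pass the signal on through plexins, while membrane-bound semaphorins mostly bind plexins directly. Netrins bind Dcc and Unc5 receptors, Slits bind Robos, and ephrins on one cell bind Eph receptors on the next. The same proteins also act outside the nervous system, in epithelial sheets and in vessel growth. The cell bodies of the corneal sensory neurons lie in the trigeminal ganglion, outside the dissected tissue.

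The transgene separated the groups as labelled. Human NR3C2 was at 0 CPM (counts scaled to a common library size by TMM factors) in all 3 wild-type libraries and at 42.2 and 36.5 CPM in the transgenic ones. Each library held between 20874010 and 30449675 counts in the gene table, and the 69 members made up 0.424% to 0.480%. The epithelial keratin Krt12 (32247 to 45506 CPM), the keratocyte proteoglycan Kera (144 to 203 CPM) and the endothelial collagen Col8a2 (231 to 320 CPM) were present in every library. Of 8 neuronal markers, 5 were at 0 in at least 1 library and 2 passed the filter on low counts. Since these are bulk samples, fewer cells of a type and less RNA per cell cannot be told apart.

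Neuropilin 2 and the Sema3d, Nrp1 and Sema6b genes were the 4 members of smallest p with an entry in the RefSeq promoter table. The mineralocorticoid receptor is a hormone-activated transcription factor, so the stretch before each of these genes is shown. The 250 bases before each gene's annotated start (RefSeq, build GRCr8, read 5′ to 3′ on the gene's strand) are printed with any match to the searched motifs in capitals.
Nrp2, chr9:71617004-71617253, plus strand: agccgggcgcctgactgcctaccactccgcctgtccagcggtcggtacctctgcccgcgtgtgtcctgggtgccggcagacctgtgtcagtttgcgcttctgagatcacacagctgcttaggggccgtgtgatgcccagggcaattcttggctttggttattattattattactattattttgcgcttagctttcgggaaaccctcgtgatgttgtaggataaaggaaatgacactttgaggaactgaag
Sema3d, chr4:23460972-23461221, minus strand: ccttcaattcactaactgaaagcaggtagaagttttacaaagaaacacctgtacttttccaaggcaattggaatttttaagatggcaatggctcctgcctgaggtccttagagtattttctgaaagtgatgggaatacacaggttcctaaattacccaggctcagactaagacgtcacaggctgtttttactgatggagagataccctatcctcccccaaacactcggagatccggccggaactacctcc
Nrp1, chr19:73256307-73256556, plus strand: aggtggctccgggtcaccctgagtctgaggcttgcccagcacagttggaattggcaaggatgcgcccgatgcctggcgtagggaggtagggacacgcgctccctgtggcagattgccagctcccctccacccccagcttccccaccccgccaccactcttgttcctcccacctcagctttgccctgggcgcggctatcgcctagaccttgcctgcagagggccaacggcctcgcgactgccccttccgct
Sema6b, chr9:1047743-1047992, minus strand: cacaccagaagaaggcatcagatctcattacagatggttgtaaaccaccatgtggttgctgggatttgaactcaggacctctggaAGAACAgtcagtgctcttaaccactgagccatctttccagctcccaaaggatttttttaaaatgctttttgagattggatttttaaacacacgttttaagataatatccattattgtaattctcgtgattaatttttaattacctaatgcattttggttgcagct
The motifs searched on both strands were the hexamer TGTTCT of the element bound by mineralocorticoid and glucocorticoid receptors, the full palindrome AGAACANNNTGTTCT, which contains that hexamer on each strand, the GC box GGGCGG and the TATA box TATAAA. Among the 4 promoters the single receptor match was the hexamer in Sema6b, read as AGAACA on the printed strand, 165 bases before the start. Of 69 members, 54 had an entry, with 55 starts in all. The hexamer was found at 2 of the 55 starts (3.64%; Sema6b and Ephb6), against 17.5% of all 33469 promoters of the table at the same length. The palindrome was at 0 of 55 and at 4 of 33469. The GC box stood in 52.7% of members' windows and 30.5% of all windows, and the TATA box in 0 of 55 and 12.9%. The median GC content was 61.6% for members and 51.2% for all. These are matches of letters in one window, not binding sites.

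Most guidance genes were read in the cornea, and none passed the test between genotypes. The filter on low counts left 61 of the 69 members. By edgeR's quasi-likelihood test with Benjamini-Hochberg adjustment over 13304 genes (threshold 0.05), 0 members rose and 0 fell, and the smallest adjusted p was 0.404. Over all genes 0.00752% were called higher and 0% lower. At an unadjusted p under 0.05, 8 members were higher in transgenic corneas (13.1% of those tested, against 4.39% of all genes) and 1 was lower (1.64%, against 1.93%). Limma voom called 0 members. DESeq2 called 1 of them higher, Nrp2, among 34 genes called higher in all (0.256%). Log2 fold changes, transgenic against wild-type, were above 0 for 43 of 61 members (70.5%, against 48.2% of all genes). Their median was 0.17, beside -0.01 for all genes tested. In 17 members the lower transgenic value exceeded the highest wild-type one (27.9%, against 12% of genes), and in 3 the order was the opposite (4.92%, against 10.7%). The 3 below were the ephrin gene Efnb1 and the class 4 semaphorins Sema4a and Sema4d. Since the families were chosen with earlier results of these data known, the differences in these shares were not tested.

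**Figure D1:**
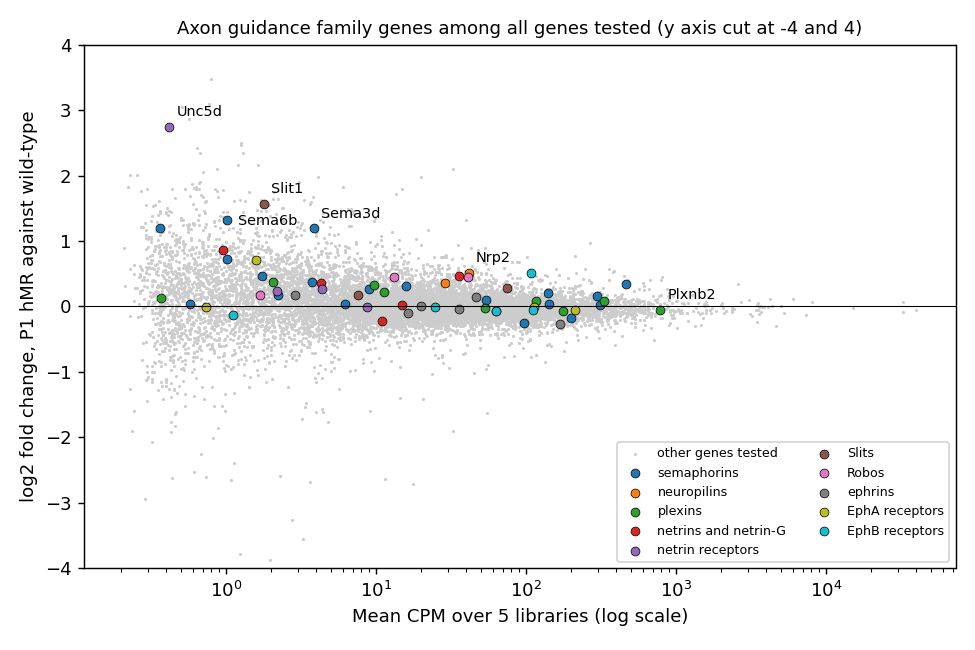
Log2 fold change of each gene tested (transgenic P1 hMR against wild-type) against its mean level in CPM over 5 libraries on a log axis (fold changes beyond -4 and 4 are not shown), with the 61 tested members coloured by family and other genes in grey. Members of low level spread widest, and 43 of the 61 points lie above 0.

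**Figure D2:**
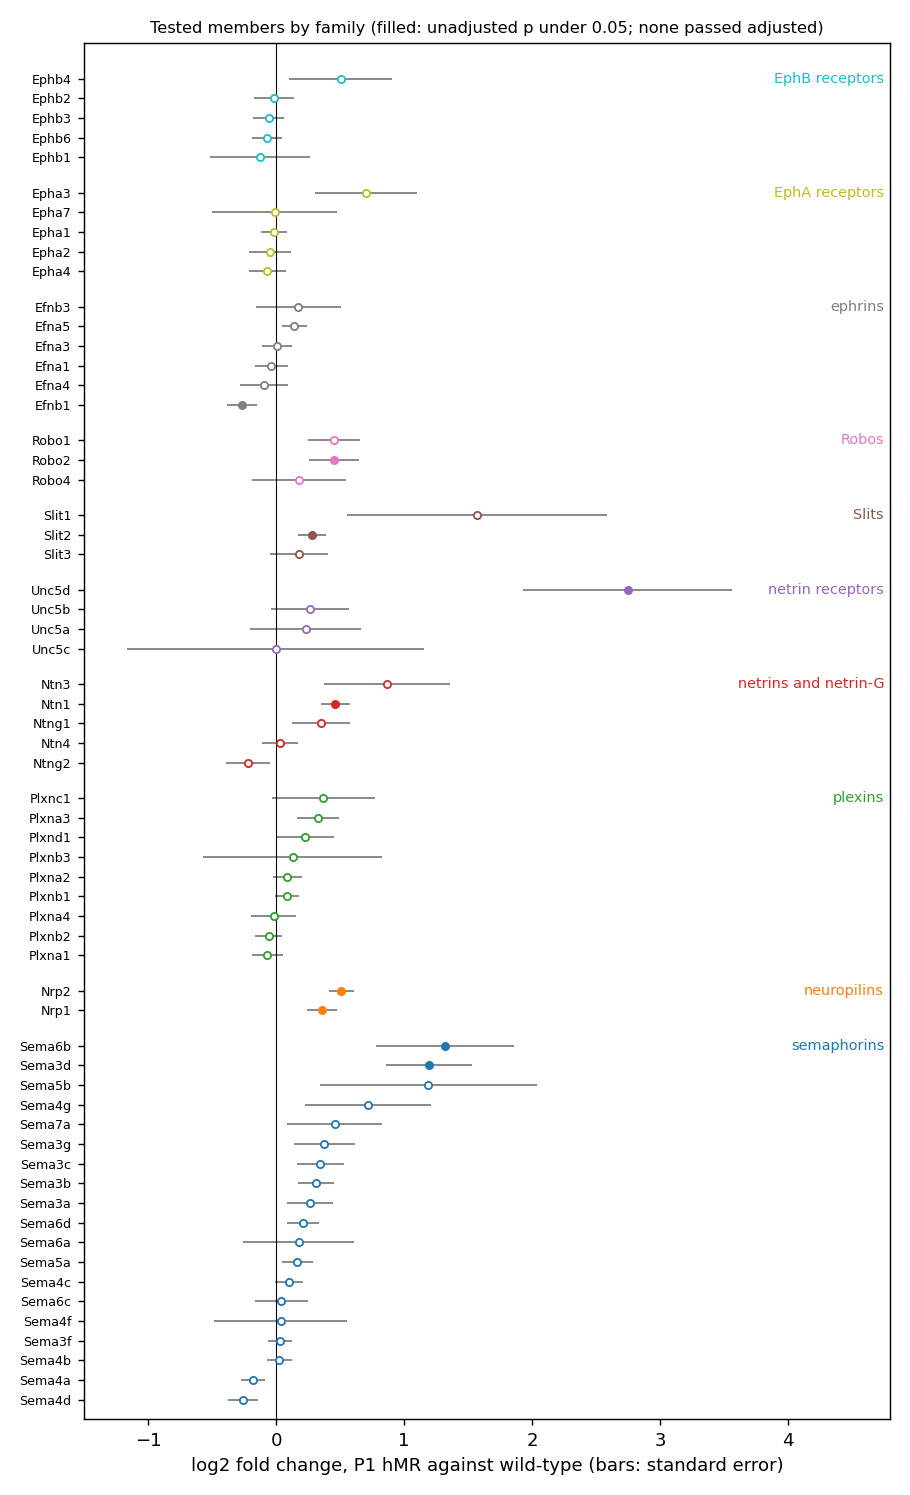
Log2 fold change of each tested member with its standard error, ordered by family; filled points have an unadjusted p under 0.05. Both neuropilins, all 3 Slits and all 3 tested Robos lie above 0, while 8 of the 10 tested Eph receptors lie slightly below it.

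The semaphorin ligands were mostly at higher levels in transgenic corneas, and none passed the test. Of 20 semaphorins 19 were tested, 17 of them above 0 (89.5%, against 48.2% of all genes) and 2 below, with a median log2 fold change of 0.21. Both transgenic values lay above the wild-type ones in 5 (26.3%, against 12% of all genes) and below them in 2 (10.5%, against 10.7%). In 4 of the 6 tested class 3 semaphorins both transgenic values exceeded the wild-type ones (66.7%, against 12% of all genes). All 6 were above 0, with a median of 0.33. So were both class 5 (median 0.68), all 4 class 6 (median 0.19) and the 1 class 7 semaphorin (0.46). The 6 class 4 semaphorins, which are membrane proteins, split into 4 above and 2 below 0, with a median of 0.03. Classes were compared after their values were seen, and the difference between them was not tested.

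Sema3c, a secreted cue that can attract as well as repel cells, had 321, 426 and 516 CPM in wild-type corneas and 527 and 544 CPM in transgenic ones, in the order of the labels' numbers here and below. Both transgenic values were above the highest wild-type one, but by little beside the wild-type spread (421 ± 97.6 CPM, SD, n = 3; 535 ± 11.8 CPM, SD, n = 2). Its log2 fold change was 0.35 ± 0.18 (SE; adjusted p = 0.835), with 0.19 when wild-type cornea 1 was left out and 0.52 when wild-type cornea 3 was. Sema3d, whose product guides axons and neural crest cells, had 2.49, 2.30 and 2.82 CPM in wild-type corneas and 3.59 and 7.99 CPM in transgenic ones. The wild-type values were close together, and transgenic cornea 2 stood well above transgenic cornea 1. The log2 fold change was 1.19 ± 0.34 (adjusted p = 0.516) and 0.50 without transgenic cornea 2. The log2 fold changes of the remaining tested class 3 genes were 0.38 ± 0.24 for Sema3g, 0.31 ± 0.14 for Sema3b, 0.27 ± 0.18 for Sema3a, the classic repellent of sensory axons, and 0.03 ± 0.09 for Sema3f. Sema3e had 2 to 6 counts per library and was not tested.

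Sema6b, a transmembrane semaphorin that binds class A plexins, had 0.794, 0.881 and 0.228 CPM in wild-type corneas and 1.97 and 1.24 CPM in transgenic ones. The groups did not overlap, at a level of 5 to 51 counts per library (log2 fold change 1.32 ± 0.54, adjusted p = 0.756). In the opposite direction, Sema4d, a ligand of plexin B1, had 113, 101 and 98.9 CPM in wild-type corneas and 97.0 and 77.4 CPM in transgenic ones. Transgenic cornea 1 was just under the lowest wild-type value, and the log2 fold change was -0.26 ± 0.12 (adjusted p = 0.791). Sema4a had 213, 209 and 203 CPM against 195 and 173 CPM (-0.18 ± 0.10, adjusted p = 0.834). Sema4a and Sema4d were picked out after their values were seen.

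Both neuropilins, the co-receptors of class 3 semaphorins and of vascular endothelial growth factors, were higher in both transgenic corneas. Nrp2 had 36.3, 35.6 and 34.7 CPM in wild-type corneas and 48.2 and 53.0 CPM in transgenic ones. The wild-type values spanned less than 2 CPM, and the gap to the lower transgenic value was several times that span. The means were 35.5 ± 0.841 CPM (SD, n = 3) and 50.6 ± 3.43 CPM (SD, n = 2), a ratio of 1.42. The log2 fold change of Nrp2 was 0.51 ± 0.10, and it did not pass over all genes in edgeR (adjusted p = 0.404). DESeq2 gave an adjusted p of 0.0129 at a log2 fold change of 0.51, while the 10 alternatives run, DESeq2 included, gave adjusted p-values from 0.0129 to 1.000. Nrp1 had 23.3, 26.2 and 28.3 CPM in wild-type corneas and 33.2 and 33.1 CPM in transgenic ones. The 2 transgenic libraries were nearly equal and above all wild-type libraries (log2 fold change 0.36 ± 0.12, adjusted p = 0.639).

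None of the plexins, which carry the signal into the cell, passed the test. All 9 were tested, and in Plxna3 and Plxnb1 both transgenic values exceeded the wild-type ones (22.2% of plexins, against 12% of all genes). Log2 fold changes were above 0 for 6 and below 0 for 3, with a median of 0.09. The largest value was that of Plxnc1, the receptor of Sema7a (0.37 ± 0.40, adjusted p = 0.901). Plxnb2, a receptor of class 4 semaphorins that is active in epithelia, had 815, 767 and 819.6 CPM in wild-type corneas and 821 and 718 CPM in transgenic ones. The ranges overlapped almost fully (-0.06 ± 0.11, adjusted p = 0.950). Plxna3, a partner of neuropilins, had 9.39, 7.63 and 9.29 CPM against 11.1 and 10.95 CPM, with both transgenic values above the wild-type ones (0.33 ± 0.16, adjusted p = 0.820). Plxnd1, the receptor of Sema3e and a gene of vessel endothelium, had 14.4, 8.66 and 8.92 CPM against 13.1 and 11.97 CPM. Wild-type cornea 1 was the highest of the 5 libraries for Plxnd1 (0.23 ± 0.23, adjusted p = 0.896), and the value ran from 0.11 without wild-type cornea 2 to 0.52 without wild-type cornea 1. Plxna1, Plxna2, Plxna4 and Plxnb1 had log2 fold changes between -0.07 and 0.09.

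**Figure D3:**
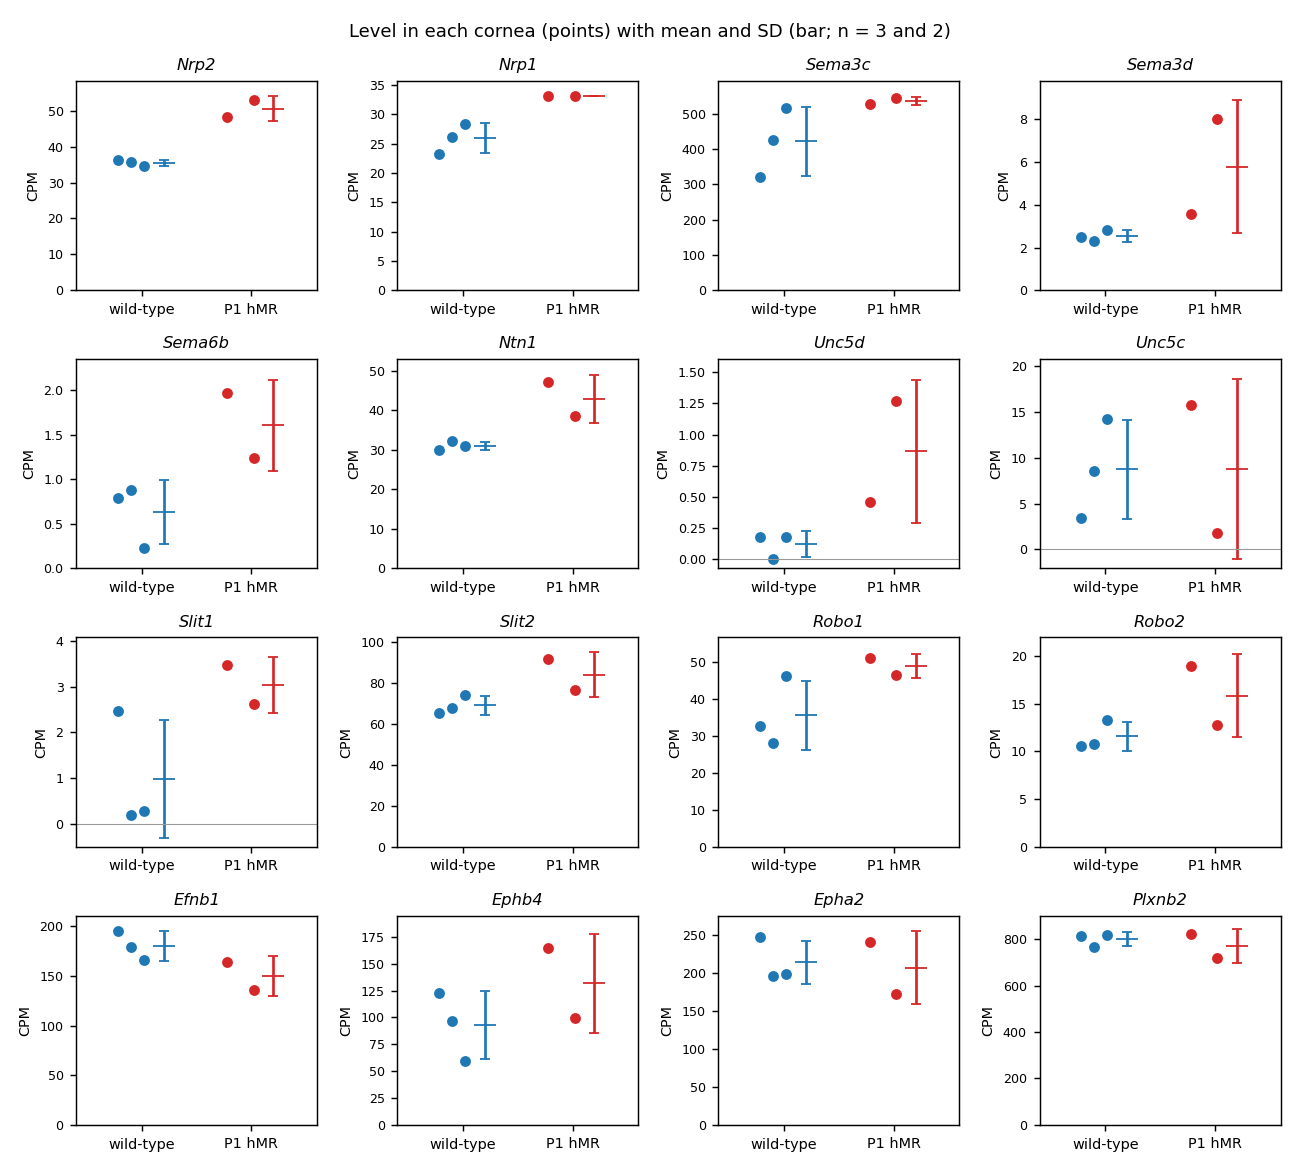
CPM of 16 members in each cornea (points, wild-type in blue and transgenic P1 hMR in red), with the mean and SD beside them (n = 3 and 2); each panel has its own linear axis, and some SD bars reach below 0. Nrp2 and Ntn1 show tight wild-type values below both transgenic ones, whereas Unc5c, Ephb4 and Slit1 vary widely within a genotype.

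Netrin 1 was the clearest of the netrin ligands. Ntn1, a secreted cue that attracts or repels axons depending on the receptor, had 30.0, 32.2 and 31.0 CPM in wild-type corneas and 47.2 and 38.5 CPM in transgenic ones. The wild-type values lay close together and under both transgenic values, which differed from each other by more than the wild-type range. Its log2 fold change was 0.46 ± 0.12 (adjusted p = 0.492), from 0.31 without transgenic cornea 1 to 0.61 without transgenic cornea 2. Ntn3 had 0.758, 0.489 and 0.911 CPM against 0.810 and 1.81 CPM, and only transgenic cornea 2 was above the wild-type range (0.87 ± 0.49, adjusted p = 0.835). Without that library the value was 0.17, and without transgenic cornea 1 it was 1.32. Ntn4, a basement membrane netrin, gave 0.03 ± 0.14. The membrane-anchored netrin-G genes went apart, with 0.35 ± 0.23 for Ntng1 and -0.22 ± 0.17 for Ntng2. Ntn5 had 2 counts in every library and was not tested.

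Among the netrin receptors the levels were low and uneven between libraries. Dcc, the attractive netrin receptor, had 2 counts in transgenic cornea 2 and 0 in the other 4 libraries, where 3 counts would be 0.108 to 0.147 CPM. Unc5d, a repulsive receptor, had 5, 0 and 4 counts in wild-type corneas and 12 and 40 counts in transgenic ones, or 0.181, 0 and 0.182 CPM against 0.463 and 1.27 CPM. The groups did not overlap, but the wild-type values were near the floor of 3 counts (log2 fold change 2.75 ± 0.82, adjusted p = 0.543). Unc5c differed 8.80-fold between its highest and lowest library, with 3.47, 8.51 and 14.2 CPM in wild-type corneas and 15.7 and 1.78 CPM in transgenic ones. The lowest and the highest library were both transgenic, and the fold change had no direction (-0.00 ± 1.16, adjusted p = 1.000). Unc5b, also a receptor of vessel tip cells, had 5.78, 2.79 and 3.60 CPM against 4.97 and 4.84 CPM (0.27 ± 0.31, adjusted p = 0.907), with 0.63 when wild-type cornea 1 was left out and 0.07 when wild-type cornea 2 was.

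All 6 tested Slit and Robo genes had log2 fold changes above 0 (against 48.2% of all genes), with a median of 0.37, and none passed. Slit2, a repellent for sensory axons and a cue for vessels, had 65.1, 68.0 and 74.2 CPM in wild-type corneas and 91.8 and 76.4 CPM in transgenic ones. Transgenic cornea 2 was only slightly above the highest wild-type cornea (0.28 ± 0.11, adjusted p = 0.731; 0.14 without transgenic cornea 1). Slit1 had 2.46, 0.196 and 0.273 CPM in wild-type corneas and 3.47 and 2.61 CPM in transgenic ones. Wild-type cornea 1 was close to the transgenic libraries and the other 2 wild-type corneas were far lower, a 12.5-fold range within the genotype. The log2 fold change was 1.57 ± 1.02 (adjusted p = 0.860) and 3.67 without wild-type cornea 1 (adjusted p = 0.0549). Slit3 gave 0.18 ± 0.22.

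Robo1 and Robo2, the axonal Slit receptors, had similar fold changes. Robo1 had 32.6, 28.04 and 46.0 CPM in wild-type corneas and 51.0 and 46.4 CPM in transgenic ones. Wild-type cornea 3 nearly reached the lower transgenic value (0.45 ± 0.20, adjusted p = 0.804; 0.69 without wild-type cornea 3). Robo2 had 10.6, 10.8 and 13.3 CPM against 18.9 and 12.8 CPM, so that the groups overlapped and transgenic cornea 1 alone stood out. Its log2 fold change was 0.45 ± 0.19 (adjusted p = 0.777) and ran from 0.14 without transgenic cornea 1 to 0.71 without transgenic cornea 2. Robo4, the receptor of vessel endothelium, gave 0.18 ± 0.37, and Robo3 had 0 to 5 counts per library and was not tested.

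**Figure D4:**
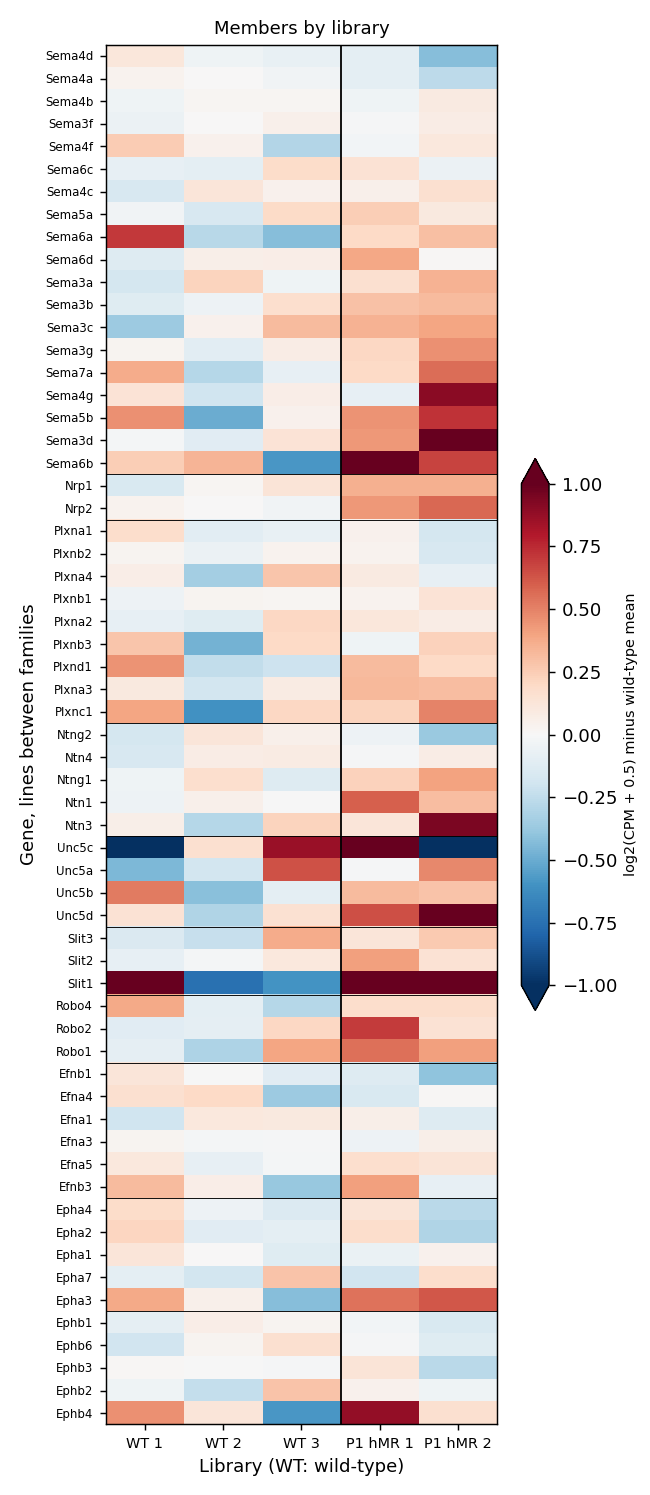
Deviation of each tested member in each library from its wild-type mean, as log2(CPM + 0.5), in rows grouped by family; red is higher, blue lower, and colours are capped at -1 and 1. Nrp1, Nrp2 and Ntn1 are red in both transgenic columns, Slit1 is also red in wild-type cornea 1, and Unc5c has opposite colours in the 2 transgenic columns.

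The ephrins and Eph receptors gave fold changes of both signs, and the tested Eph receptors other than Epha3 and Ephb4 lay between -0.13 and -0.01. Of 6 tested ephrins 3 were above 0 and 3 below, with a median of -0.01. Efnb1, a transmembrane ephrin of epithelia, had 196, 179 and 166 CPM in wild-type corneas and 164 and 136 CPM in transgenic ones. Transgenic cornea 1 was only just below the lowest wild-type cornea (-0.27 ± 0.12, adjusted p = 0.777; -0.13 without transgenic cornea 2 and -0.41 without transgenic cornea 1). Efna5, a membrane-anchored repellent, had 47.7, 41.7 and 43.7 CPM against 49.7 and 48.4 CPM (0.14 ± 0.10, adjusted p = 0.860). For Efna5, transgenic cornea 2 exceeded wild-type cornea 1 by less than 1 CPM, which is within the wild-type SD of 3.02 CPM.

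Of 10 tested Eph receptors 2 were above 0 and 8 below, with a median of -0.03, and the lowest value was -0.13 (Ephb1). Epha2, an Eph receptor of epithelia, had 247, 197 and 199 CPM in wild-type corneas and 241 and 173 CPM in transgenic ones. In both genotypes 1 library was high, and the ranges overlapped (-0.05 ± 0.16, adjusted p = 0.974). Epha4, which binds ephrins of both classes, had 73.1, 62.2 and 58.6 CPM against 70.2 and 53.3 CPM (-0.07 ± 0.14, adjusted p = 0.958). Epha3 was higher in both transgenic corneas, at 1.73, 1.27 and 0.774 CPM against 2.00 and 2.13 CPM (0.70 ± 0.40, adjusted p = 0.835; 0.46 without wild-type cornea 3). Epha10, Epha5 and Epha8 each had 5 counts or fewer over all libraries together, and with the ephrin gene Efna2 (15 counts) were not tested.

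Ephb4, the receptor through which veins are told from arteries, had 122, 96.9 and 59.2 CPM in wild-type corneas and 164 and 99.4 CPM in transgenic ones. The wild-type libraries differed 2.07-fold among themselves, and the fold change of 0.50 ± 0.41 (adjusted p = 0.878) was 0.10 without transgenic cornea 1 and 0.82 without transgenic cornea 2. Ephb3 had 115, 114 and 113 CPM against 125 and 94.4 CPM, and the transgenic libraries lay on both sides of 3 nearly equal wild-type ones (-0.06 ± 0.12, adjusted p = 0.958). Ephb6, a receptor without kinase activity, had 56.4, 65.7 and 72.1 CPM against 63.8 and 59.3 CPM (-0.07 ± 0.12, adjusted p = 0.938).

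The isoform table gave 96 isoforms with a member's name, 67 of them tested, and in edgeR 0 rose and 0 fell over 27110 isoforms (0% called either way; lowest adjusted p 0.993). At an unadjusted p under 0.05, 5 were higher (7.46%, against 2.31% of isoforms) and 0 lower (1.67% of isoforms). Log2 fold changes were above 0 for 43 (64.2%, against 50.4%). The groups did not overlap for 15 isoforms higher in transgenic corneas (22.4%, against 11.2%) and 4 lower (5.97%, against 9.54%). Limma voom called 0 and DESeq2 called 1, the Nrp2 isoform, among 100 isoforms called higher in all (0.369%). Isoform levels below are CPM of the isoform table, and their split rests on the authors' estimate. Many isoforms in the table carry no gene name, so the named ones cover part of some genes. The isoforms described here were picked after their values were seen. For Nrp2 the named isoform ENSRNOT00000042562 held 82.6% of the gene's counts, at 29.5, 29.2 and 26.7 CPM in wild-type corneas and 37.7 and 39.7 CPM in transgenic ones. The groups did not overlap at this level either (log2 fold change 0.44 ± 0.10). Ntn1, Sema3d and Efnb1 each had a single named isoform with all of the gene's counts, and were not separate from the gene-level result.

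Nrp1 had 2 named isoforms with different patterns. The main one, ENSRNOT00000080465, had 18.0, 20.7 and 20.7 CPM in wild-type corneas against 22.7 and 22.7 CPM (0.20 ± 0.12). The minor one, ENSRNOT00000014492, had 0.308, 4.01 and 1.89 CPM against 7.65 and 6.82 CPM (1.81 ± 0.94, unadjusted p = 0.111 in edgeR). It took 1.40%, 16.3% and 7.07% of the Nrp1 counts in wild-type corneas, against 24.3% and 21.7%. For Robo2, isoform ENSRNOT00000065748 took 34.8%, 28.2% and 37.9% of the gene's counts in wild-type corneas, against 62.1% and 55.1%. Its level was 3.49, 2.86 and 4.77 CPM against 11.2 and 6.67 CPM (1.265 ± 0.346), while ENSRNOT00000093706 had 2.46, 3.32 and 2.45 CPM against 3.04 and 2.90 CPM (0.11 ± 0.32). The difference in shares between isoforms was not tested. Slit1 isoform ENSRNOT00000034758 had 0 counts in all 3 wild-type corneas and 16 and 21 counts in transgenic ones. Against a floor of 3 counts in each wild-type library, both transgenic levels were higher by at least 4.23-fold. This isoform did not pass (unadjusted p = 0.0198 in edgeR). The other named Slit1 isoform, ENSRNOT00000035415, had 6, 0 and 6 counts against 19 and 0. The named Slit1 isoforms held 27.2% of the gene's counts, and wild-type cornea 1 had 68 counts of the whole gene. Unc5c isoform ENSRNOT00000050330 had 0, 5.54 and 7.05 CPM in wild-type corneas and 0 in both transgenic ones, and the named Unc5c isoforms held 29.4% of the gene's counts. The main Slit2 isoform, ENSRNOT00000081601, had 41.6, 46.1 and 44.0 CPM against 49.3 and 41.9 CPM (0.05 ± 0.11).

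**Figure D5:**
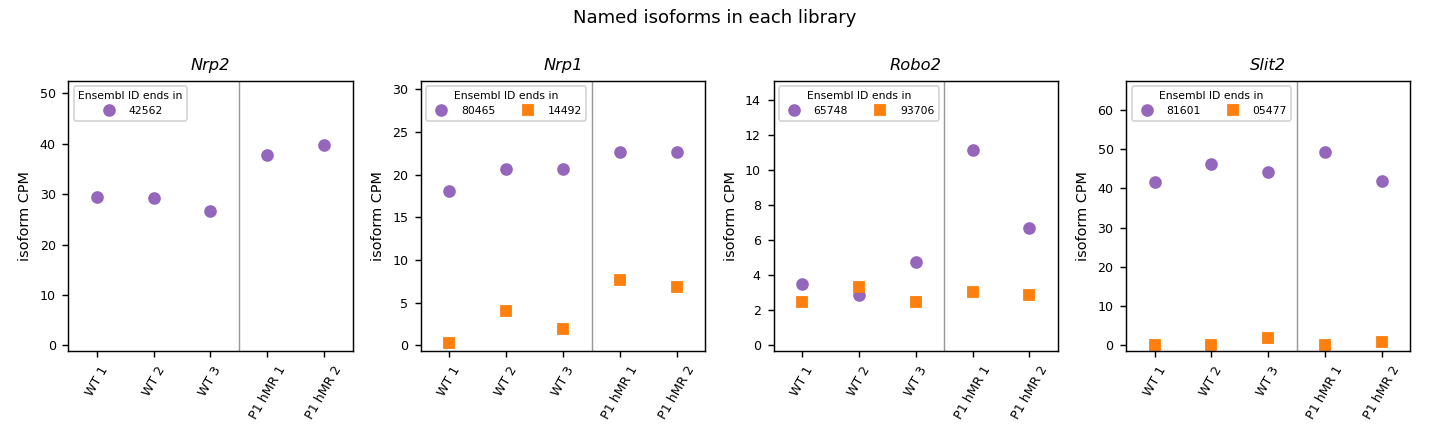
CPM of the named isoforms (up to 2 per gene) of Nrp2, Nrp1, Robo2 and Slit2 in each library on linear axes; the grey line parts wild-type (WT) from transgenic P1 hMR corneas. The minor Nrp1 isoform and the first Robo2 isoform are higher in both transgenic libraries, and the main Slit2 isoform overlaps.

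None of the co-receptors and intracellular partners of these receptors passed the test. A list of 64 co-receptors and effectors held 61 genes of the table and 57 tested ones. In edgeR 0 rose and 0 fell, and at an unadjusted p under 0.05, 5 were higher (8.77%, against 4.39% of all genes) and 2 lower (3.51%, against 1.93%). Fold changes were above 0 for 30 and below for 27, with a median of 0.01. The groups did not overlap for 10 genes higher in transgenic corneas (17.5%, against 12%) and 4 lower (7.02%, against 10.7%). Dpysl3, a cytoskeletal protein of the collapsin response family downstream of semaphorins, had 34.7, 40.6 and 40.5 CPM in wild-type corneas against 57.6 and 48.3 CPM (0.46 ± 0.12, adjusted p = 0.492). Gpc1, a heparan sulfate proteoglycan that binds Slits, had 58.8, 56.7 and 66.0 CPM against 79.2 and 71.0 CPM (0.31 ± 0.10, adjusted p = 0.651). Vav2, an exchange factor that Eph receptors recruit, was lower in both transgenic corneas, at 77.5, 81.3 and 85.2 CPM against 69.4 and 66.2 CPM (-0.26 ± 0.09, adjusted p = 0.695). In all 3 the genotypes did not overlap, and none passed.

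Of 14 neurotrophin and GDNF family ligands and receptors, 13 were in the table and 11 tested. In edgeR 0 rose and 0 fell, with 5 above 0 (45.5%, against 48.2% of all genes), 6 below and a median of -0.03. At an unadjusted p under 0.05, 1 was higher (9.09%, against 4.39% of all genes) and 0 lower (against 1.93%). Both transgenic values lay above the wild-type ones for 2, Ntrk2 and Gfra2 (18.2%, against 12%). They lay below them for 2, Ntf3 and Artn (18.2%, against 10.7%). Ntrk2, the receptor of brain-derived neurotrophic factor, had 22.2, 20.7 and 27.1 CPM in wild-type corneas against 30.7 and 35.0 CPM (0.49 ± 0.14, adjusted p = 0.514). Gfra2, a co-receptor for neurturin, gave 0.58 ± 0.30 and the neurotrophin gene Ntf3 -0.27 ± 0.18 (adjusted p = 0.829 and 0.860).

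For some other cell types the summed marker levels did not overlap between genotypes, and for others they did. No marker gene passed in edgeR, and the part of these lists in the differences above was not tested. The summed level of 9 pigment cell markers was 53.7, 13.8 and 39.9 CPM in wild-type corneas against 93.2 and 169.65 CPM, with 8 of 9 higher and Mlana at 0 in 1 wild-type library. For 7 markers of ciliary and pigment epithelium it was 7.29, 1.61 and 3.87 CPM against 12.6 and 16.7 CPM, with all 6 tested higher. Sema3d and Unc5d had, like the pigment list, their highest value in transgenic cornea 2. Slit1 had its highest wild-type value in cornea 1, as both lists did. Unlike both lists, Slit1 was higher in transgenic cornea 1 (3.47 CPM) than in transgenic cornea 2 (2.61 CPM). Ntn1, Slit2, Robo1, Robo2, Sema6b and Ephb4 also had their highest value in transgenic cornea 1. Nrp2, Sema3a, Sema3b, Sema3c, Sema3g, Ntn3 and Epha3 had theirs in transgenic cornea 2, as Sema3d and Unc5d did. These genes were picked out after their values were seen, and with 2 transgenic libraries a shared order says little. The 8 keratocyte markers summed to 2113 to 2357 CPM in wild-type corneas against 2541 and 2674 CPM, with 6 of 8 higher. The 8 endothelial markers summed to 1296 to 1409 CPM against 1512 and 1536 CPM, with 6 of 7 tested higher and Zp4 at 0 throughout. The 7 blood vessel markers summed to 55.7 to 68.0 CPM against 82.6 and 76.6 CPM, with all 7 higher. The 7 smooth muscle markers summed to 108 to 143 CPM against 144 and 159 CPM, with 5 of 7 higher.

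The 9 Schwann cell markers overlapped between genotypes (276 to 348 CPM against 362 and 341 CPM), with 7 of 8 tested higher and Egr2 at 0 in 1 library. The 5 lymphatic markers overlapped too (27.5 to 35.1 CPM against 31.6 and 32.5 CPM), with 3 of 4 tested higher and Prox1 at 0 in 1 library. Pdpn made up most of that sum. Within the list the genotypes did not overlap for Ccl21, which was lower (-1.71, log2), and Reln, which was higher (1.14). Neuronal markers were lower, at 8.15 to 9.69 CPM against 6.55 and 7.16 CPM, with 1 of 2 tested higher: Tubb3 gave -0.96 and Syt1 0.34 (log2). The 8 lens markers were lower, at 23.4 to 130.6 CPM against 16.0 and 9.20 CPM, with 0 of 6 tested higher, Mip at 0 in 2 libraries and Lim2 in 2. Sums of the 7 epithelial (95512 to 120579 CPM), 8 retinal (6.41 to 20.7 CPM) and 6 leukocyte markers (41.1 to 61.9 CPM) overlapped between genotypes, with Crx and Opn1sw (retina) and Cd3e (leukocyte) at 0 in some library. In edgeR 0 marker genes of these lists passed.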

How the data were processed

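Corneal RNA of 3 wild-type and 2 transgenic P1 hMR libraries was compared. The authors deposited an expected count (estimated count) for every gene and isoform, made from the reads without normalization, as fractional values and unequal totals in the files show. The submitters' processing notes name build rn6 and the tools RSEM 1.2.28, STAR 2.5.3a, edgeR 3.28.0, DESeq2 1.26.0, fastp and FastQC, without roles. Annotation and strand are not given in the sources used here: antisense partners cannot be told apart, and reads could be split between related members. No transcript lengths were used, so levels are not compared between genes.

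Counts were rounded, filtered by filterByExpr (minimum count 10), and scaled by TMM; R 4.3.3 with edgeR 4.0.16 gave two-sided robust quasi-likelihood tests, adjusted by Benjamini-Hochberg over all genes or isoforms (threshold 0.05). The procedure was tested on simulated data of 13304 genes with 50 changed genes per fold. It recovered 25 at 1.5-fold, 38 at 2-fold, 48 at 3-fold and 47 at 4-fold, with 20 false calls in all. The false calls were a larger share of all calls than 0.05. Changed genes were drawn only from genes above a minimum mean level, so recovery at low levels was not measured. All folds were in 1 simulation, whereas in the data 1 gene was called, so recovery in the data may be lower. Means are ± SD and log2 fold changes ± SE; floors of 3 counts cover counting error only. Alternatives used DESeq2 1.42.0, limma 3.58.1 (voom), other size factors, no filter, a replicate block and leaving out each library. Fully named were Nrp2, Ntn1, Sema3d and, per family, the 2 members of smallest p and the one of highest CPM, the 3 genes of smallest p per pathway list, and up to 2 isoforms per named member. Members and lists were chosen with earlier results of these data known. Promoters are RefSeq sequences matched by symbol.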

Additional observations from a re-analysis of the deposited data

How the results depend on the processing

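The 10 alternatives were 5 other settings and the removal of each of 5 libraries. Members past the threshold stayed at 0 in both directions, except that DESeq2 called 1 higher (Nrp2); it also called 1 member isoform. The number higher at an unadjusted p under 0.05 ran from 5 (without transgenic cornea 1) to 11 (without wild-type cornea 1 or 3) with a library left out, against 8; over all genes the share higher was 4.69% when transgenic cornea 1 was left out, 4.81% and 6.71% when wild-type cornea 1 or 3 was, and 1.91% when transgenic cornea 2 was, against 4.39%. The number lower ran from 0 to 1 with a wild-type library left out, against 1. It was 2 with no filter, 2 by limma voom and 2 with the replicate block. Over all genes the share lower was 1.17%, 1.25% and 4.19% without wild-type cornea 1, 2 or 3. That share was 1.76% with no filter, 1.95% by limma voom and 4.24% with the replicate block, against 1.93%. Between 42 and 46 members were above 0 with a library left out. The median log2 fold change ran from 0.10 (without wild-type cornea 2) to 0.20. With the replicate number as a block, 10 members were higher at an unadjusted p under 0.05 (6.06% of all genes were) and 0 passed (16 genes did); the median was 0.20. The labels do not say that a number pairs rats. Deviations of same-numbered libraries from their group mean correlated at -0.00 for number 1 and -0.11 for number 2 over 13304 genes. Deviations of the 2 transgenic libraries mirror each other, so these correlations say little about pairing. No transgenic library has number 3, so wild-type cornea 3 adds nothing to the genotype difference under the block. The epithelial marker sum differed by -0.20 to 0.14 (log2) with a library left out.

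Of 250 values of 25 named members under these alternatives, 12 reversed sign and 1 passed (Nrp2 by DESeq2). The reversals were near 0 or in Unc5c: Epha2 ran from -0.31 to 0.17 with a library left out, Epha4 from -0.28 to 0.12, Ephb3 from -0.27 to 0.13, Ephb6 from -0.15 to 0.0161, Plxnb2 from -0.16 to 0.0386 and Unc5c from -2.28 to 0.86. With the replicate block Ephb6 was 0.0151 and Unc5c 0.0738, and without a filter Unc5c was 0.00090. The cause was not tested. Among members of low counts, depth limits the precision: 8 were not tested.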
